A study of Gallus gallus with 12 samples.

Results

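The genes described here are the ligands and receptors that steer growing axons, namely ephrins and Eph receptors, semaphorins with their plexin and neuropilin receptors, netrins with the UNC5 receptors, and SLIT3 with the ROBO receptors. They were taken by gene symbol, and no measured value entered that rule. The rule was set with earlier results of these data known, so the choice of genes was not blind to them. Such a symbol is carried by 54 of the 24358 genes in the expression table. Of these, 28 encode ligands and 26 encode receptors, and 53 had enough reads to be tested. DCC, a netrin receptor, was not analysed here. Expression was measured by bulk RNA sequencing in 12 libraries from White Leghorn chicken, 3 in each of 4 groups. E14 retina is the dissociated central part of normal retina from embryonic day 14, without electroporation. DMC cells are primary lines that grew out of retina electroporated in ovo at embryonic day 3.5 with a piggyBac vector for human MYCN and GFP under the CAG promoter, and that were kept in suspension. The young lines (DMC8, DMC9, DMC10) had been under 4 weeks in culture, and the old lines (DMC1, DMC2, DMC3) over 200 days. The T58A lines (DMC4, DMC5, DMC6), also over 200 days in culture, carry MYCN with the T58A substitution, which removes a phosphorylation site that marks the protein for degradation. Each library is 1 line or retina, and the labels do not say whether the lines came from different embryos, so p-values measure the spread between these libraries. For DMC9 and DMC10 the authors state that they were established independently, from retinas electroporated separately.

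Axon guidance molecules are read by the growth cone as attractants or repellents. Ephrins are anchored in the membrane of 1 cell and bind Eph receptor tyrosine kinases on its neighbour; in the chick visual system, graded EphA and ephrin-A proteins order the map that ganglion cell axons form in the tectum, along one axis, and EphB and ephrin-B proteins along the other. Class 3 semaphorins are secreted, and most act through a neuropilin, which binds the ligand, and a plexin, which signals. Semaphorins of classes 4 to 7 are bound to membranes and mostly bind plexins directly. Netrins attract axons through DCC and repel them through UNC5 receptors, and Slit proteins repel axons through ROBO receptors. Several of these proteins also act in cell migration, lamination of the retina and growth of blood vessels.

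The libraries held 20984957 to 35088450 reads in genes, and 1 read corresponded to 0.881 to 1.19 normalized counts. Reads of the transgene, human MYCN, numbered 0 in all 3 retinas and 51712 to 334150 in the 9 lines, with the fewest in DMC5. The summed marker lists of the inner retina were lower in the lines. Summed bipolar cell markers (5 genes) reached 43772 to 49722 normalized counts in E14 retina and 669 to 2899.8 in the 9 lines. Amacrine markers (10 genes) summed to 24682 to 26334 and 3432 to 20046, horizontal cell markers (6 genes) to 9148 to 10431 and 882 to 3570.5, Müller glia markers (7 genes) to 8389.7 to 9208 and 804 to 2244, and ganglion cell markers (15 table entries) to 17693 to 20025 and 6989.5 to 10367. PMEL, a pigment cell gene that led the sum of the pigment epithelium list, had 109, 136 and 125 in retina and 23160.0 to 72941 in the lines, where RPE65 and TYR had 12.6 to 80.9 and 0 to 145. PRDM13, an amacrine factor, was at 0 in all 9 lines, and ISL1, of ganglion and bipolar cells, was at 0 in 8 of them. Other members of these lists were higher: RBPMS of the ganglion cell list was called higher in all 3 comparisons, NEFM of the same list in young cells and SLC6A9 of the amacrine list in T58A cells, and of the 6 horizontal cell markers 3, 2 and 2 were called lower in young, old and T58A cells. Photoreceptor markers (11 genes) summed to 60795 to 73516 in E14 retina, 62287 to 89330.0 in young, 49029 to 79681 in old and 18335 to 87106 in T58A lines, and proliferation markers (7 genes) to 1530.4 to 1917 in retina and 11524 to 69548 in the lines. Fewer cells of a type and less RNA per cell cannot be told apart in bulk samples, and the part of these marker levels in the results below was not tested.

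More axon guidance genes fell than rose in DMC cells against E14 retina. A gene was called differentially expressed (DE) at an adjusted p of at most 0.05, from limma with Benjamini-Hochberg adjustment over 15284 genes, and a log2 fold change of at least 1 in size. Calls refer to the fit of all 12 libraries unless an alternative is named. That fit has 1 estimate of the spread per gene, shared by the 4 groups. Its p-values therefore also rest on the spread of libraries outside the comparison. The fit of 6 libraries holds the 2 groups of 1 comparison alone. Where it has a replicate block, old lines and retinas are matched by their label numbers only, which is not a known pairing, so a call made with the block adds little. In young DMC cells 26 of 53 genes fell (49.1%) and 3 rose (5.66%), whereas of all genes tested 23.0% fell and 20.5% rose. In old DMC cells 27 fell and 3 rose, with 23.5% and 20.3% of all genes. In T58A DMC cells 27 fell and 5 rose, with 24.8% and 19.6% of all genes. The median log2 fold change of the axon guidance genes was -1.60, -2.20 and -1.69 in the young, old and T58A comparison, and that of all genes tested -0.03, -0.05 and -0.10. These comparisons share the 3 retinas. Without TMM factors the median of all genes shifted to -0.45, -0.38 and -0.32, with 2200, 2316 and 2424 genes up and 4653, 4494 and 4349 down in place of 3137, 3106 and 2999 up and 3512, 3588 and 3795 down, while the axon guidance genes gave 3, 3 and 4 up and 27, 31 and 29 down. Leaving out DMC5 raised the T58A count from 5 to 8 up and leaving out DMC6 lowered it to 3. Of all genes tested, 3159 and 2873 were then up in place of 2999.

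**Figure D1:**
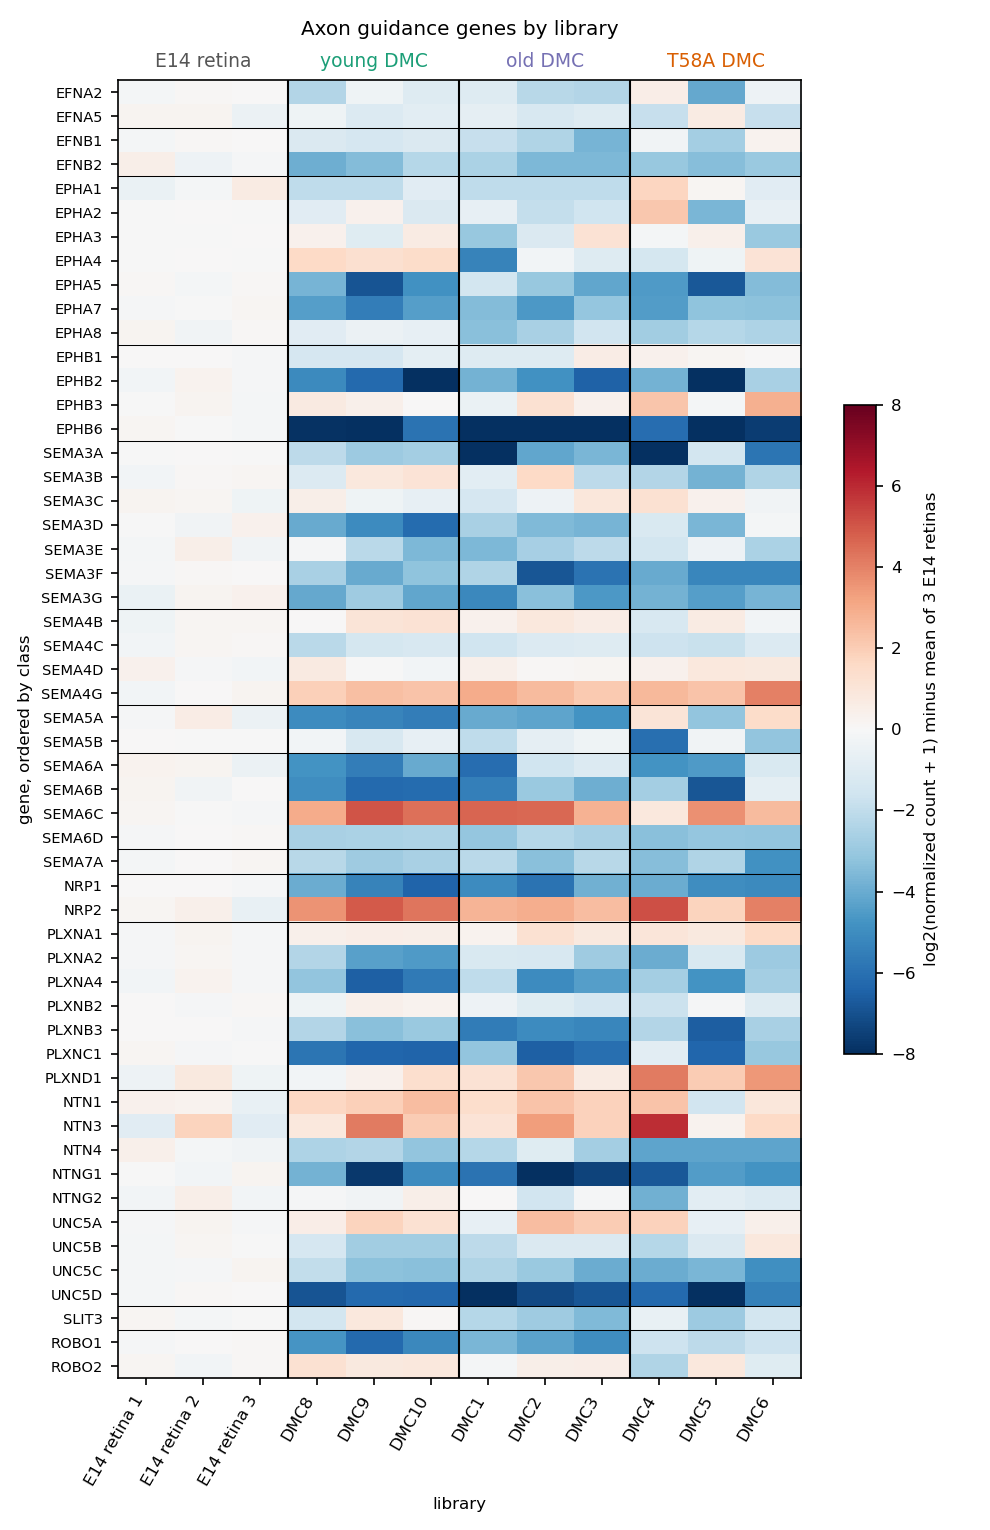
Level of each of the 54 axon guidance genes (vertical, ordered by class) in the 12 libraries (horizontal), as log2(normalized count + 1) minus the mean of the 3 E14 retinas; blue is lower, red is higher, and the colours stop at 8 in either direction. Most of the plot is blue in all 9 lines, with red rows for SEMA4G, SEMA6C and NRP2.

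In all, 20 genes were called lower in all 3 comparisons, 3 (SEMA4G, SEMA6C, NRP2) were called higher in all 3, and 14 in none, where 16.6%, 13.7% and 41.4% of all genes had these patterns. The remaining 16 were called in 1 or 2 of the comparisons, and no gene was called up in one and down in another. Every one of the 9 lines was below all 3 retinas for 25 of the 53 genes, where this held for 25.9% of all genes tested. It was above all 3 retinas for 4 genes (SEMA4G, SEMA6C, NRP2, PLXNA1), against 21.6% of all genes. Line by line, 35 to 42 of the 53 genes lay below the lowest retina, with the most in DMC1, and 8 to 15 above the highest. In the young, old and T58A comparison 12, 15 and 14 of 28 ligands and 14, 12 and 13 of 25 receptors were lower. The median log2 fold changes were -1.4, -2.3 and -1.7 for ligands and -2.3, -2.2 and -1.8 for receptors.

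**Figure D2:**
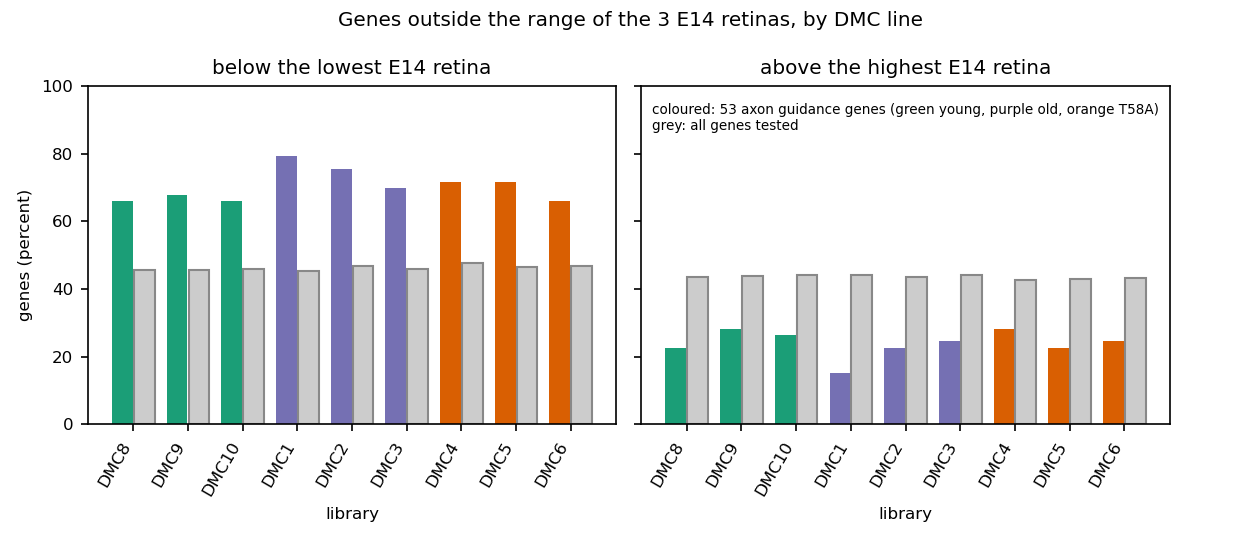
Percent of genes (vertical) below the lowest (left) or above the highest (right) of the 3 E14 retinas in each DMC line (horizontal), for the 53 axon guidance genes (coloured bars) and the 15284 genes tested (grey bars). The coloured bars reach 66.0% to 79.2% on the left and 15.1% to 28.3% on the right, while the grey bars lie between 42.7% and 47.7% in both.

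Of the ephrin ligands, EFNB2, a transmembrane ephrin of EphB and EphA4 receptors, fell in all 3 kinds of DMC cells. Its normalized counts were 1843, 1035 and 1283 in the 3 retinas, 89.5, 121 and 279 in DMC8, DMC9 and DMC10, 231, 112 and 113 in DMC1, DMC2 and DMC3, and 164, 125 and 170.0 in DMC4, DMC5 and DMC6. All 9 lines were low and none reached the retinas (8.49-fold lower in young cells, log2 fold change -3.21 ± 0.45 (SE), adjusted p = 0.000148). EFNB1, the other B-type ligand, was called lower in old cells alone, with 453, 299.5 and 120.1 in the old lines and 1431, 1715 and 1652 in retina. The young lines, at 727, 627 and 712, were also below all retinas, and the fall was called there in the fit of 6 libraries (adjusted p = 0.000132). The A-type ligands, tethered by a lipid anchor, were not called. EFNA2 stood at 179, 217 and 210.0 in retina and 10.8 to 288 in the lines, and EFNA5 at 236, 238 and 144 in retina and 54.0 to 311 in the lines. For EFNA2, 8 lines, among them all young and old ones, were below all retinas and DMC4 was above them. For EFNA5, 7 lines, among them all old ones, were below all retinas, and DMC5 was above them. EFNA2 was called lower in old cells in the fit of 6 libraries (adjusted p = 0.00714) and in the fit of 6 libraries with a replicate block (adjusted p = 0.0186). EFNA5 was called lower in old cells in the fit of 6 libraries (adjusted p = 0.0335), and in T58A cells without DMC5 (log2 fold change -1.87, adjusted p = 0.00261).

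Among the EphA receptors EPHA5 and EPHA7 fell in all 3 comparisons. EPHA5, a receptor of A-type ephrins, had 2676, 2224 and 2709 normalized counts in retina, 191, 19.8 and 85.3 in young, 914, 309.9 and 142 in old and 110.3, 21.5 and 231 in T58A lines. No line overlapped with the retinas, and the young lines were 25.7-fold lower (log2 fold change -5.17 ± 0.96 (SE), adjusted p = 0.000929). DMC1 kept the highest level of the 9 lines, and the call in old cells (adjusted p = 0.025) ended without DMC2, without DMC3 or without any 1 of the retinas (highest adjusted p of 16 alternatives 0.101). EPHA7 had 278, 288 and 333 in retina and no more than 33.8 in any line (28.4-fold lower in young cells, log2 fold change -4.79 ± 0.57 (SE), adjusted p = 5.14e-05).

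EPHA2, EPHA3 and EPHA4 were not called. EPHA4, which binds ephrins of both types, had 691, 730.0 and 694 in retina, 2118, 1731 and 1992 in young, 16.4, 597 and 351 in old and 262, 554 and 1498 in T58A lines. All young lines were above and all old lines below the retinas, with DMC1 the lowest by far, but neither comparison passed the test (log2 fold change 1.46 ± 1.05 (SE), adjusted p = 0.264 in young, log2 fold change -2.20 ± 1.05 (SE), adjusted p = 0.0983 in old cells). Without DMC2 the old comparison was called, with an adjusted p of 0.0281, and in the fit of young lines and retinas alone so was the young one, with 4.1e-05. EPHA3 had 514, 513 and 546 in retina and ranged from 62.6 to 1185 among the lines. EPHA2 had 40.8, 43.2 and 40.0 in retina, 192 in DMC4 and between 2.39 and 52.1 in the other 8 lines. It was called lower in old cells in the fit of 6 libraries (adjusted p = 0.0359). EPHA8 was called lower in old and T58A cells, by 5.07 and 5.89 times, and not in young cells, although all 9 lines were below all 3 retinas. EPHA1 was too low to be tested, with at most 11 reads in a library.

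EPHB6 showed the deepest fall of the 53 genes in all 3 comparisons. It encodes an Eph receptor whose kinase domain is inactive. The retinas had 2423, 2199 and 2026 normalized counts, the young lines 8.24, 1.80 and 36.6, the old lines 1.93, 0.939 and 5.63 and the T58A lines 31.2, 2.39 and 10.3. Retina and lines were far apart, by 143, 782 and 151 times in young, old and T58A cells (log2 fold change -9.37 ± 0.98 (SE), adjusted p = 2.18e-05 in old cells), although DMC2 held only 1 read, so that the folds are loose. EPHB2, which binds B-type ephrins, had 2193, 3111 and 2366 in retina, 74.2, 33.2 and 6.65 in young, 182, 87.3 and 27.2 in old and 181, 4.78 and 415 in T58A lines. It fell in all 3 comparisons (log2 fold change -6.55 ± 1.37 (SE), adjusted p = 0.00201 in young cells), and the lines differed among themselves by up to 86.7 times. EPHB3, another receptor of B-type ephrins, was not called, with 212, 248 and 190.0 in retina and 150.2 to 1585 in the lines. It was called higher in T58A cells without DMC5 (log2 fold change 2.54, adjusted p = 0.000717) in place of log2 fold change 1.65 ± 0.66 (SE), adjusted p = 0.0535. EPHB1 was called lower in young cells alone (log2 fold change -1.17 ± 0.37 (SE), adjusted p = 0.0205). The call ended without DMC8, without DMC9 or without E14 retina 1 or 2 (highest adjusted p of 15 alternatives 0.0652). It was called lower in old cells without DMC3 (log2 fold change -1.03, adjusted p = 0.005).

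Class 3 semaphorins, the secreted repellents, were lower or did not pass the test, and none rose. SEMA3D had the largest fall in young cells, with 145, 123 and 190.0 normalized counts in retina, 8.24, 3.59 and 1.11 in young, 24.1, 12.2 and 10.3 in old and 63.5, 10.8 and 136 in T58A lines. Young and old lines lay below the retinas (log2 fold change -5.08 ± 0.85 (SE), adjusted p = 0.000483 in young cells), whereas DMC6 reached the range of the retinas and the T58A comparison was called only without DMC6 (log2 fold change -2.46, adjusted p = 0.0309). SEMA3F, which signals through NRP2, had 7680.4, 8518 and 8211 in retina, 1365, 489.8 and 862 in young, 1503, 69.5 and 133 in old and 489, 219 and 215 in T58A lines. It fell in all 3 (log2 fold change -5.07 ± 0.88 (SE), adjusted p = 0.000612 in old cells). DMC8 and DMC1 kept the highest levels of the lines. SEMA3G also fell in all 3, from 278 to 512 in retina to 10.6 to 54.8 in the lines (log2 fold change -3.70 ± 0.58 (SE), adjusted p = 0.000301 in young cells).

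SEMA3A, the ligand of NRP1, was uneven between lines. The retinas had 2490.0, 2587 and 2503, the young lines 594, 332 and 377, the old lines 5.78, 139.9 and 195 and the T58A lines 7.80, 903 and 42.5. All 9 lines were below the retinas, and the fall was called in old (log2 fold change -5.46 ± 1.50 (SE), adjusted p = 0.00976) and T58A cells (log2 fold change -5.17 ± 1.50 (SE), adjusted p = 0.0129). In young cells (adjusted p = 0.17) it was called in the fit of 6 libraries (adjusted p = 4.3e-05) and with voom weights (adjusted p = 0.0128). The T58A call ended without DMC4 (highest adjusted p of 15 alternatives 0.051). SEMA3B was called lower in T58A cells alone, a call that ended without DMC5 (highest adjusted p of 15 alternatives 0.0505). SEMA3E, at most 15.9 in retina, was called lower in old cells alone, which ended with a pseudocount of 10, without DMC1 or without E14 retina 2 (highest adjusted p of 15 alternatives 0.0619), and in young cells without TMM factors (adjusted p = 0.0419) and without DMC8 (log2 fold change -2.87, adjusted p = 0.0115). SEMA3C was not called and had 220.2, 211 and 154 in retina and 75.1 to 440.2 in the lines.

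The 2 neuropilins moved in opposite directions. NRP1, the binding partner of SEMA3A and a coreceptor of VEGF, had 752, 739 and 696 normalized counts in retina, 44.8, 17.1 and 7.76 in young, 21.2, 11.3 and 50.7 in old and 45.7, 22.7 and 20.7 in T58A lines. It was 31.4-fold lower in young cells (log2 fold change -5.24 ± 0.68 (SE), adjusted p = 8.75e-05), 26.3-fold lower in old and 24.5-fold lower in T58A cells. NRP2, the binding partner of SEMA3F, had 208, 245 and 124 in retina, 2233, 5463 and 3547 in young, 1244, 1365 and 1012 in old and 6721, 639 and 2980.2 in T58A lines. Each of the 9 lines was above the highest retina, and the group means were higher by 19.5 times in young (log2 fold change 4.24 ± 0.67 (SE), adjusted p = 0.00033), 6.28 times in old (log2 fold change 2.69 ± 0.67 (SE), adjusted p = 0.00577) and 17.9 times in T58A cells (log2 fold change 3.66 ± 0.67 (SE), adjusted p = 0.000868). Both calls stood in every alternative run for the 3 comparisons.

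**Figure D3:**
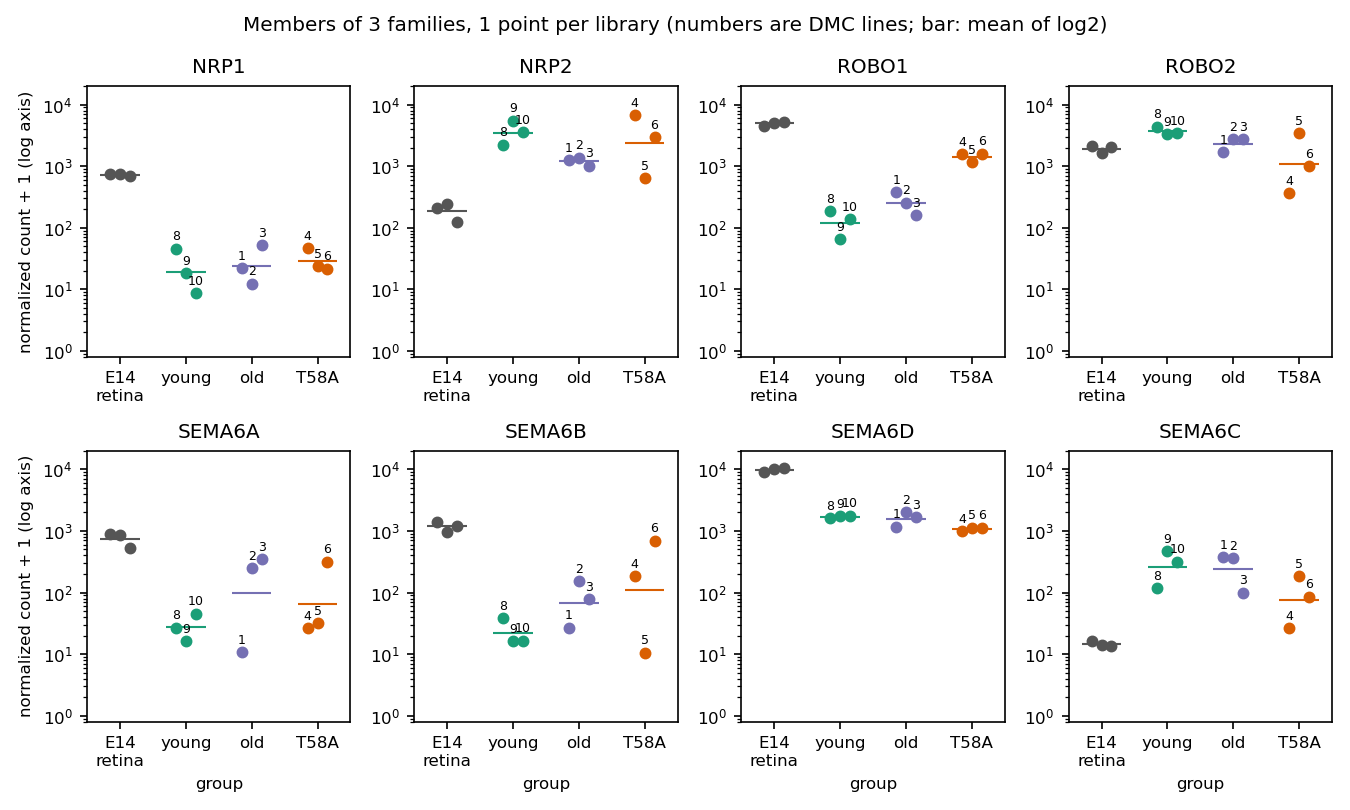
Normalized count plus 1 (vertical, log axis) of NRP1, NRP2, ROBO1, ROBO2 and the class 6 semaphorins in the 4 groups (horizontal), 1 point per library with the number of the DMC line beside it and a bar at the mean of the log2 values. NRP1 lies between 696 and 752 in retina and at most at 50.7 in the lines, NRP2 between 124 and 245 in retina and at least at 639 in the lines.

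Of the 4 class 4 semaphorins, 1 rose, 1 fell and the others were not called. SEMA4G, a transmembrane semaphorin, rose in all 3 comparisons, from 112, 129 and 146 in retina to 485, 695 and 638 in young, 992, 746 and 545 in old and 796, 633 and 2151 in T58A lines. Lines and retinas did not overlap (log2 fold change 2.22 ± 0.41 (SE), adjusted p = 0.000941 in young, log2 fold change 2.99 ± 0.41 (SE), adjusted p = 0.000124 in T58A cells). SEMA4C, a ligand of plexin-B2, fell, from 1683, 2273 and 2088 in retina to 457, 752 and 826 in young, 664, 917 and 974 in old and 631, 578 and 941 in T58A lines, which again did not overlap (log2 fold change -1.60 ± 0.28 (SE), adjusted p = 0.000632 in young cells). SEMA4D, a ligand of B-type plexins, was not called and had 1254, 941 and 841 in retina and 842 to 1759 in the lines. SEMA4B was not called either, with 1091 to 1540.2 in retina and 555 to 3036 in the lines, the lowest being DMC4.

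SEMA5A split the lines into low and high ones. In the mouse retina SEMA5A and SEMA5B keep the processes of inner neurons out of the outer retina. SEMA5A had 907, 1455 and 716 normalized counts in retina, 29.4, 24.3 and 19.9 in young, 58.7, 52.6 and 34.7 in old and 2018, 111 and 2717 in T58A lines. Young and old lines were far below the retinas (log2 fold change -5.28 ± 0.94 (SE), adjusted p = 0.0007 in young, log2 fold change -4.34 ± 0.94 (SE), adjusted p = 0.00247 in old cells), DMC5 was below them too, and DMC4 and DMC6 were above them. The T58A comparison was not called (log2 fold change -0.21 ± 0.94 (SE), adjusted p = 0.866), and without DMC5 it was, in the upward direction (log2 fold change 1.25, adjusted p = 0.0198). SEMA5B went the other way in the same lines, with 6693, 6430.3 and 6180.2 in retina, 5589, 2659 and 4046 in young, 1543, 3989 and 5125 in old and 97.0, 5219 and 712 in T58A lines. It was lowest in DMC4 and DMC6, and the fall in T58A cells (log2 fold change -3.17 ± 1.05 (SE), adjusted p = 0.0244) ended in the fit of 6 libraries, without DMC4, without DMC6 or without any 1 of the retinas (highest adjusted p of 15 alternatives 0.0851).

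Class 6 semaphorins are transmembrane ligands of A-type plexins, and 1 of the 4 rose while the others were lower. SEMA6C had 15.1, 13.2 and 12.7 normalized counts in retina, 115, 473 and 315 in young, 374, 357 and 98.6 in old and 25.6, 182 and 85.0 in T58A lines. All lines were above the retinas (log2 fold change 4.15 ± 0.77 (SE), adjusted p = 0.000966 in young, log2 fold change 4.02 ± 0.77 (SE), adjusted p = 0.0012 in old cells), and the rise in T58A cells (log2 fold change 2.35 ± 0.77 (SE), adjusted p = 0.0233) ended with the deposited values, with voom weights, without DMC5, without DMC6 or without any 1 of the retinas (highest adjusted p of 15 alternatives 0.0929). SEMA6B had 1409.7, 977 and 1213 in retina, 37.7, 15.3 and 15.5 in young, 26.0, 152 and 77.0 in old and 183, 9.56 and 698 in T58A lines. It fell in all 3 (log2 fold change -5.77 ± 1.20 (SE), adjusted p = 0.00201 in young cells). The old call ended without DMC1 (highest adjusted p of 16 alternatives 0.0517) and the T58A call in the fit of 6 libraries, without DMC5 or without any 1 of the retinas (highest adjusted p of 15 alternatives 0.0869). SEMA6D was the most even, with 9171, 10040.0 and 10441 in retina, 1626, 1729.9 and 1779 in young, 1177, 2006 and 1666 in old and 987, 1136 and 1123 in T58A lines, and had the smallest standard error of the 53 genes (log2 fold change -2.53 ± 0.19 (SE), adjusted p = 3.31e-06 in young, log2 fold change -3.19 ± 0.19 (SE), adjusted p = 8.02e-07 in T58A cells). SEMA6A was called lower in young and T58A cells, and its 9 lines spread from 9.63 to 347 below a retina range of 526 to 908. The T58A call ended without DMC4, without DMC5 or without any 1 of the retinas (highest adjusted p of 15 alternatives 0.104). Old cells were called lower without TMM factors (adjusted p = 0.0408), with voom weights (adjusted p = 0.0228) and without DMC3 (log2 fold change -3.84, adjusted p = 0.0357). SEMA7A, the lipid-anchored semaphorin, had 7794, 9223 and 9659 in retina, 1886, 1240.1 and 1446 in young, 1947, 861 and 1876 in old and 845, 1662 and 307 in T58A lines. It fell in all 3 (log2 fold change -3.55 ± 0.51 (SE), adjusted p = 0.000161 in T58A cells).

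**Figure D4:**
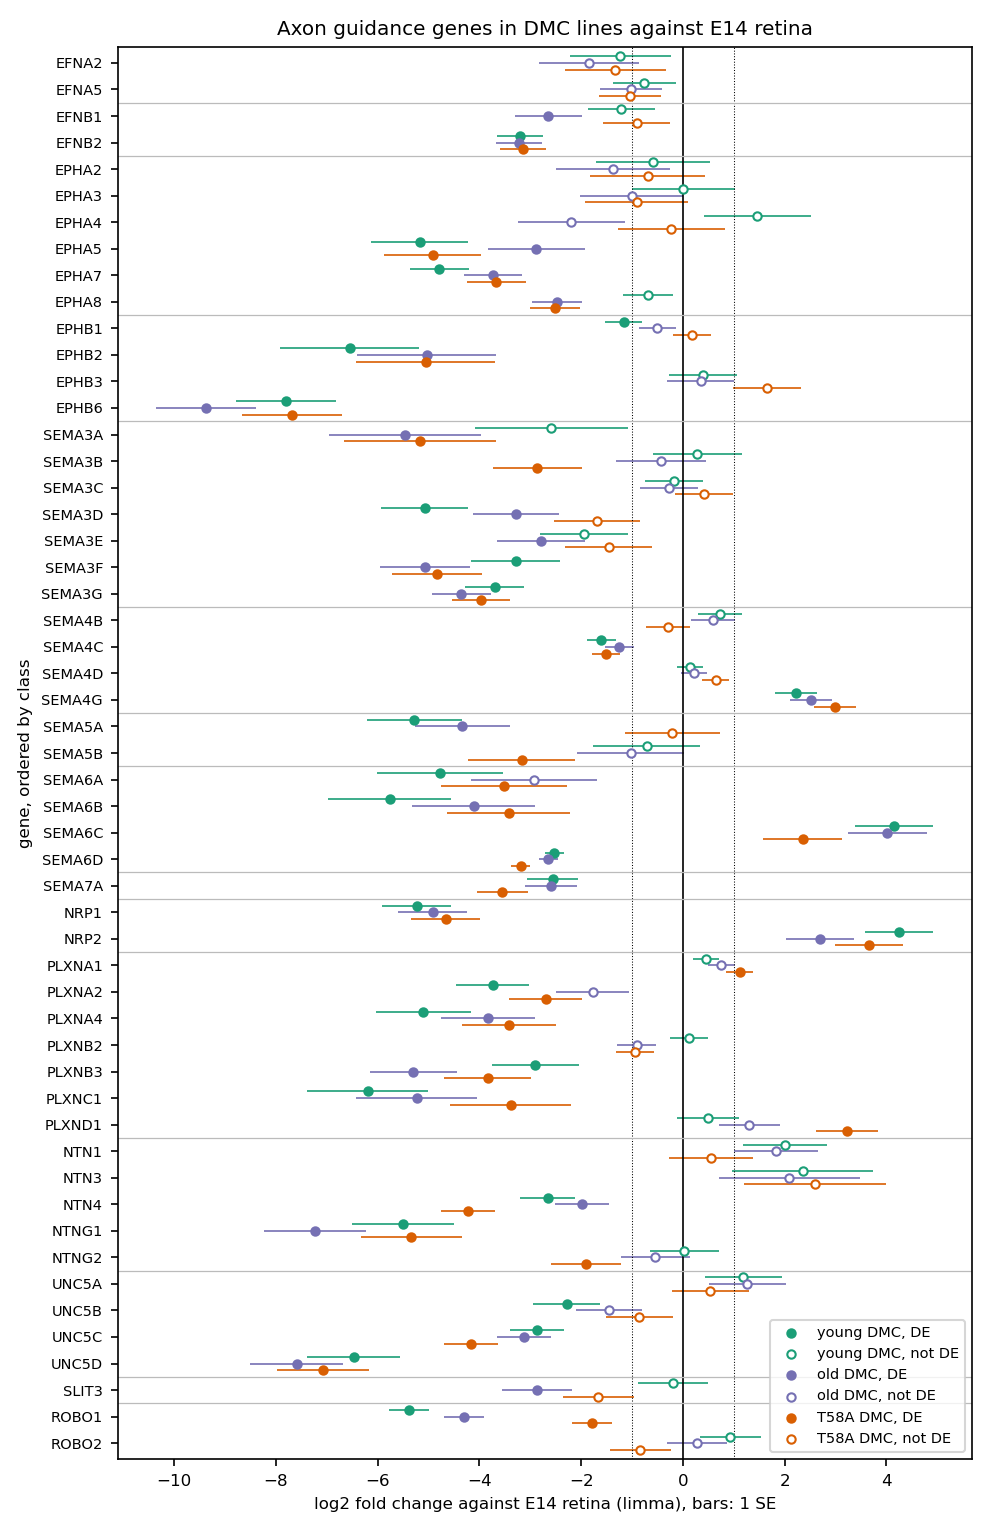
Log2 fold change against E14 retina (horizontal, with bars of 1 SE, dotted lines at -1 and 1) of the 53 genes tested (vertical, ordered by class) in young, old and T58A DMC cells; filled points are DE. EPHB6 and UNC5D lie farthest to the left, and SEMA4G, SEMA6C and NRP2 are the genes with filled points to the right in all 3 colours.

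Of the plexins, the signalling receptors of semaphorins, PLXNC1, PLXNA4 and PLXNB3 fell in all 3 comparisons. PLXNC1, the receptor of SEMA7A, had 1044, 863 and 925 normalized counts in retina, 15.3, 10.8 and 9.97 in young, 106, 9.39 and 13.1 in old and 535, 10.8 and 115 in T58A lines. It had the largest fall of the plexins in young cells (log2 fold change -6.20 ± 1.19 (SE), adjusted p = 0.00116), and DMC4 kept more than the other lines. The call in T58A cells ended in the fit of 6 libraries, without DMC5, without DMC6 or without any 1 of the retinas (highest adjusted p of 15 alternatives 0.0972). PLXNA4, a partner of neuropilins and a receptor of class 6 semaphorins, had 2489, 3499 and 2649 in retina, 320.4, 29.7 and 56.5 in young, 688, 84.5 and 135 in old and 429, 102 and 428 in T58A lines. PLXNA4 fell in all 3 (log2 fold change -5.10 ± 0.93 (SE), adjusted p = 0.000838 in young cells). PLXNB3, a receptor of SEMA5A, had 4429.6, 4449 and 4044 in retina, 856, 414 and 538 in young, 86.7, 129 and 114 in old and 842, 44.2 and 721 in T58A lines. It fell most in old cells (log2 fold change -5.30 ± 0.85 (SE), adjusted p = 0.000381), and DMC5 was the lowest line.

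PLXNA2, a receptor of SEMA6A, fell in young and T58A cells and was not called in old cells (adjusted p = 0.0568), although all old lines, at 3247, 3081 and 1066, lay below the retinas, at 6921, 8541 and 7185. The old comparison was called in the fit of 6 libraries (adjusted p = 0.00792), with the deposited values (adjusted p = 0.0492), without TMM factors (adjusted p = 0.0245), with median-of-ratios size factors (adjusted p = 0.0484), in the fit of 6 libraries with a replicate block (adjusted p = 0.00595) and with voom weights (adjusted p = 0.0318). PLXNB2, a receptor of SEMA4C and SEMA4D, was not called, with 3329.8, 3059 and 3529.7 in retina and 1022 to 4401 in the lines. It was called lower in old cells without TMM factors (adjusted p = 0.00768) and without DMC1 (log2 fold change -1.17, adjusted p = 0.0335), and in T58A cells with the deposited values (adjusted p = 0.014), without TMM factors (adjusted p = 0.0109) and without DMC5 (log2 fold change -1.38, adjusted p = 0.00342). Called higher in T58A cells alone were PLXND1, the receptor of SEMA3E and known for its part in vessel growth, and PLXNA1. PLXND1 had 111, 250.1 and 116 in retina, 126, 187 and 383 in young, 332, 649.7 and 229 in old and 2643, 618 and 1664 in T58A lines, and the T58A lines did not overlap with the retinas (log2 fold change 3.23 ± 0.61 (SE), adjusted p = 0.00101). In old cells it was called higher in the fit of 6 libraries (adjusted p = 0.0493) and in the fit of 6 libraries with a replicate block (adjusted p = 0.0134). PLXNA1 had 3369, 4137 and 3403 in retina and 4376 to 11056 in the lines, all of them above the retinas (log2 fold change 1.11 ± 0.26 (SE), adjusted p = 0.00398 in T58A cells). That call ended with the deposited values, without TMM factors or without DMC6 (highest adjusted p of 15 alternatives 0.12).

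The netrins were of 2 kinds in these cells. NTNG1, a lipid-anchored netrin that binds a synaptic partner rather than DCC, had 953, 837 and 1141 normalized counts in retina, 70.7, 3.59 and 28.8 in young, 15.4, 1.88 and 4.69 in old and 7.80, 43.0 and 34.5 in T58A lines. No line came near the retinas (log2 fold change -5.50 ± 1.00 (SE), adjusted p = 0.000807 in young, log2 fold change -7.23 ± 1.00 (SE), adjusted p = 0.000132 in old cells). NTNG2, its relative, was called lower in T58A cells alone, with 217, 1799 and 1515 against 2728, 4331 and 2687 in retina. The call ended in the fit of 6 libraries, without DMC4 or without any 1 of the retinas (highest adjusted p of 15 alternatives 0.109). The secreted netrins had few reads. NTN4, which binds laminins, had 24.0, 15.9 and 14.5 in retina, 2.36, 2.70 and 1.11 in young, 2.89, 8.45 and 1.88 in old and 0, 0 and 0 in T58A lines. It fell in all 3, was at least 5.24-fold lower in T58A cells against 3 reads per library, and was no longer called in old cells with a pseudocount of 10. NTN1, known from the optic disc as a cue for ganglion cell axons, had 2.66, 2.64 and 0.909 in retina, 8.24, 9.88 and 15.5 in young, 6.74, 13.1 and 9.39 in old and 13.4, 0 and 4.59 in T58A lines, which did not pass the test (log2 fold change 2.01 ± 0.83 (SE), adjusted p = 0.0606 in young cells). NTN1 was called higher in young cells in the fit of 6 libraries (adjusted p = 0.00712), in old cells in the fit of 6 libraries (adjusted p = 0.0174) and in the fit of 6 libraries with a replicate block (adjusted p = 0.0391), and in T58A cells without DMC5 (log2 fold change 1.61, adjusted p = 0.0451). NTN3 was not called, with 111 in DMC4 and at most 31.5 in every other library. It was called higher in old cells in the fit of 6 libraries with a replicate block (adjusted p = 0.0231), and in T58A cells without DMC5 (log2 fold change 3.77, adjusted p = 0.0389).

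UNC5D had, after EPHB6, the deepest fall of the receptors in old and T58A cells. UNC5D, a receptor of netrins and of FLRT proteins, had 3302, 3889 and 3814 normalized counts in retina, 29.4, 48.5 and 45.4 in young, 7.70, 23.5 and 31.0 in old and 49.0, 3.58 and 86.1 in T58A lines. It was 89.2-fold lower in young (log2 fold change -6.47 ± 0.91 (SE), adjusted p = 0.000148), 177-fold lower in old and 79.3-fold lower in T58A cells. UNC5C, a netrin receptor of repelled axons, had 644, 682 and 839 in retina, 180.2, 72.8 and 68.7 in young, 133, 91.1 and 45.1 in old and 45.7, 56.2 and 23.0 in T58A lines. Its level fell in all 3 (log2 fold change -4.17 ± 0.53 (SE), adjusted p = 7.54e-05 in T58A cells). UNC5A was not called in the fit of 12 libraries. It had 1133, 1425 and 1148 in retina, 1813, 4271 and 2823 in young, 776, 6697 and 4959.7 in old and 4407, 774 and 1657 in T58A lines, so that the young lines were above the retinas and DMC1 and DMC5 below them. It was called higher in young cells in the fit of 6 libraries (adjusted p = 0.00828), and in old cells without DMC1 (log2 fold change 2.23, adjusted p = 0.00992). UNC5B was called lower in young cells alone (log2 fold change -2.29 ± 0.65 (SE), adjusted p = 0.0123), with 3476 in DMC6 above a retina range of 1762 to 2119.7. It was called lower in old cells in the fit of 6 libraries (adjusted p = 0.0028), with the deposited values (adjusted p = 0.0287), without TMM factors (adjusted p = 0.0369) and in the fit of 6 libraries with a replicate block (adjusted p = 0.00294), and in T58A cells without DMC6 (log2 fold change -1.71, adjusted p = 0.0145).

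The ROBO receptors of Slit proteins differed from each other. ROBO1 had 4556, 4998 and 5236 normalized counts in retina, 184, 63.8 and 136 in young, 381, 254 and 159.6 in old and 1569, 1153 and 1588 in T58A lines. All 9 lines were below the retinas, 38.5 times lower in young (log2 fold change -5.38 ± 0.39 (SE), adjusted p = 2.56e-06), 18.6 times in old (log2 fold change -4.30 ± 0.39 (SE), adjusted p = 8.49e-06) and 3.43 times in T58A cells (log2 fold change -1.79 ± 0.39 (SE), adjusted p = 0.00252), and all 3 calls stood in every alternative. Young and old lines overlapped. ROBO2, its neighbour on the chromosome, was not called in any of them and had 2145, 1624 and 2039 in retina, 4381, 3267 and 3458 in young, 1692, 2708 and 2721 in old and 362, 3427 and 1001 in T58A lines. All young lines were above the retinas (log2 fold change 0.93 ± 0.59 (SE), adjusted p = 0.208), and DMC4 and DMC6 were below them. It was called lower in T58A cells without DMC5 (log2 fold change -1.67, adjusted p = 0.00318) in place of log2 fold change -0.84 ± 0.59 (SE), adjusted p = 0.254. SLIT3 was called lower in old cells (log2 fold change -2.87 ± 0.69 (SE), adjusted p = 0.00481) and not in the others, with 186, 155 and 169 in retina, 60.1, 303 and 177 in young, 34.7, 22.5 and 14.1 in old and 111, 21.5 and 60.9 in T58A lines. T58A cells were called lower with the deposited values (adjusted p = 0.0442), without TMM factors (adjusted p = 0.0449) and without DMC4 (log2 fold change -2.19, adjusted p = 0.0249).

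Several of the genes lie close together in the RefSeq annotation of GRCg7b, which was used for gene order only. ROBO1 and ROBO2 have 1 protein-coding gene between them, and ROBO1 fell while ROBO2 was not called. SEMA3D, SEMA3A and SEMA3E follow each other with no protein-coding gene between, and each was called lower in at least 1 comparison, SEMA3D in young and old, SEMA3A in old and T58A and SEMA3E in old cells. SEMA3C, with 3 protein-coding genes between it and SEMA3E, was called in none. EPHB2 and EPHA8, with 3 protein-coding genes between them, were both called lower in old and T58A cells, and EPHB2 in young cells as well. SEMA3F and SEMA3B also have 3 protein-coding genes between them, and SEMA3F fell in all 3 comparisons while SEMA3B was called lower in T58A cells alone. Of the 53 genes tested, near each other or not, 20 were called lower in all 3 comparisons and 14 in none. Whether neighbours changed alike more often than other pairs was not tested.

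Known partners did not always change alike. SEMA7A and its receptor PLXNC1 both fell in all 3 comparisons. EFNB2 and the receptor EPHB2 likewise both fell in all 3, whereas EPHB3 was not called. SEMA3F fell while its binding partner NRP2 rose, and both were called in all 3 comparisons. SEMA6B and SEMA6D fell with PLXNA4, a receptor of their class, whereas SEMA6C rose. The old and T58A calls of SEMA6B and the T58A call of SEMA6C were not made in every alternative. Of the other A-type plexins, PLXNA2 was called lower in young and T58A cells. PLXNA1 was above the retinas in all 9 lines and was called higher in T58A cells alone, a call that not every alternative made. FLRT2, a ligand of UNC5D that is not one of the 54 genes, had 810.5, 424 and 573 normalized counts in retina and at most 5.57 in any line, and it fell along with UNC5D in all 3 comparisons. SLIT1, a ligand of the ROBO receptors, had 16188, 24264 and 23969 in retina and 55.1 to 722 in the lines, and fell in all 3. ROBO1 likewise fell in all 3, whereas ROBO2 was called in none, and all young lines were above the retinas in ROBO2. SLIT2 fell in young and old cells, with 2204, 21.5 and 1029 in DMC4, DMC5 and DMC6 against 1719, 1447 and 1383 in retina.

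Young and old DMC cells were compared to see whether time in culture went with other levels. None of the 53 genes was DE in limma (0 against 0.196% of all genes tested), 9 had an unadjusted p under 0.05, where 9.34% of all genes did, and voom weights gave 0 as well. The lines of the 2 groups did not overlap for 11 genes, with 9 higher and 2 lower in young cells, where all young lines were above all old lines for 8.03% of all genes and below them for 8.88%. SLIT3 had 60.1, 303 and 177 in the young and 34.7, 22.5 and 14.1 in the old lines (log2 fold change 2.68 ± 0.69 (SE), adjusted p = 0.202), EPHA8 81.3, 109.6 and 95.3 and 14.4, 24.4 and 52.6 (log2 fold change 1.79 ± 0.49 (SE), adjusted p = 0.223), and EPHA4 2118, 1731 and 1992 and 16.4, 597 and 351 (log2 fold change 3.65 ± 1.05 (SE), adjusted p = 0.249). These 3 genes were chosen after their values were seen, and none passed the test.

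T58A and old DMC cells, both long in culture, differ in the MYCN protein they carry. In this comparison the authors also found HINTW and other genes of the female W chromosome among their top DE genes, and left them out. The sex of the lines was not a term in the fit used here, and its part was not tested. None of the 53 genes was DE in limma (0 against 0.0393% of all genes tested), 7 had an unadjusted p under 0.05, where 19.7% of all genes did, and 1, ROBO1, was called with voom weights, with a pseudocount of 10 or with the deposited values. The count changed with DMC5. Human MYCN was at 196370.0, 61789 and 200360.0 normalized counts in DMC4, DMC5 and DMC6, chicken MYCN at 354, 0 and 245, and the cone marker RXRG at 1709.5, 31908 and 1312, against 16498, 13563 and 25836 in the old lines. DMC5 thus stood apart from the other T58A lines in the transgene and in these markers, and the part of these differences in the result was not tested. Chicken MYCN was at 0, 0.939 and 0.939 in the old and 3.53, 4.49 and 9.97 in the young lines. In this gene DMC4 and DMC6, not DMC5, were the lines apart from all others. In RXRG DMC4 and DMC6 lay below every old line and DMC5 above. The names of the libraries hold RPMI for DMC4 and DMC5 and DMEM for DMC6, while the growth protocol gives RPMI for all lines, and 1 or 2 libraries a name allow no comparison within them.

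Without DMC5 the T58A group holds DMC4 and DMC6 alone. Then 12 of the 53 genes were called higher and 5 lower in T58A than in old cells, where 7.81% of all genes tested were called higher and 9.34% lower. The share of lower genes was thus near that of all genes. Each library was left out in turn, and this exclusion was singled out after its result was seen. Where DMC5 stands apart, leaving it out narrows the spread, so the p-values without it are no independent support. SEMA5A, at 2018, 111 and 2717 in DMC4, DMC5 and DMC6 and 58.7, 52.6 and 34.7 in the old lines, had a log2 fold change of 5.59 ± 0.40 (SE), adjusted p = 7.58e-05 without DMC5 and 4.13 ± 0.94, adjusted p = 0.0924 with it. Over the other 14 alternatives its adjusted p ran from 0.065 to 0.492. ROBO1 was above every old line in all 3 T58A lines (2.51 ± 0.39, adjusted p = 0.0679 with DMC5 and 2.66 ± 0.43 (SE), adjusted p = 0.00276 without it), and over the other 14 alternatives its adjusted p ran from 0.031 to 0.151.

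Beside SEMA5A and ROBO1, the genes called higher without DMC5 were the ligands EFNA2, EFNB1, SEMA3D and SEMA6B and the receptors EPHB3, NRP2, PLXNB3, PLXNC1, PLXND1 and UNC5D. EFNB1 had 1289, 240.2 and 1974 in the T58A and 453, 299.5 and 120.1 in the old lines, and PLXND1 2643, 618 and 1664 and 332, 649.7 and 229. EPHB3 had 1006, 196 and 1585 and 150.2, 496 and 277. In each of these 3 genes DMC4 and DMC6 were above all old lines, and DMC5 overlapped with them. The genes called lower without DMC5 were the ligands NTN4, SEMA4B, SEMA5B and SEMA7A and the receptor ROBO2. ROBO2 had 362, 3427 and 1001 in the T58A and 1692, 2708 and 2721 in the old lines, and SEMA5B 97.0, 5219 and 712 and 1543, 3989 and 5125, so that DMC4 and DMC6 were the low lines and DMC5 the highest of the 6. Leaving out any other library gave 0 calls in this comparison.

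**Figure D5:**
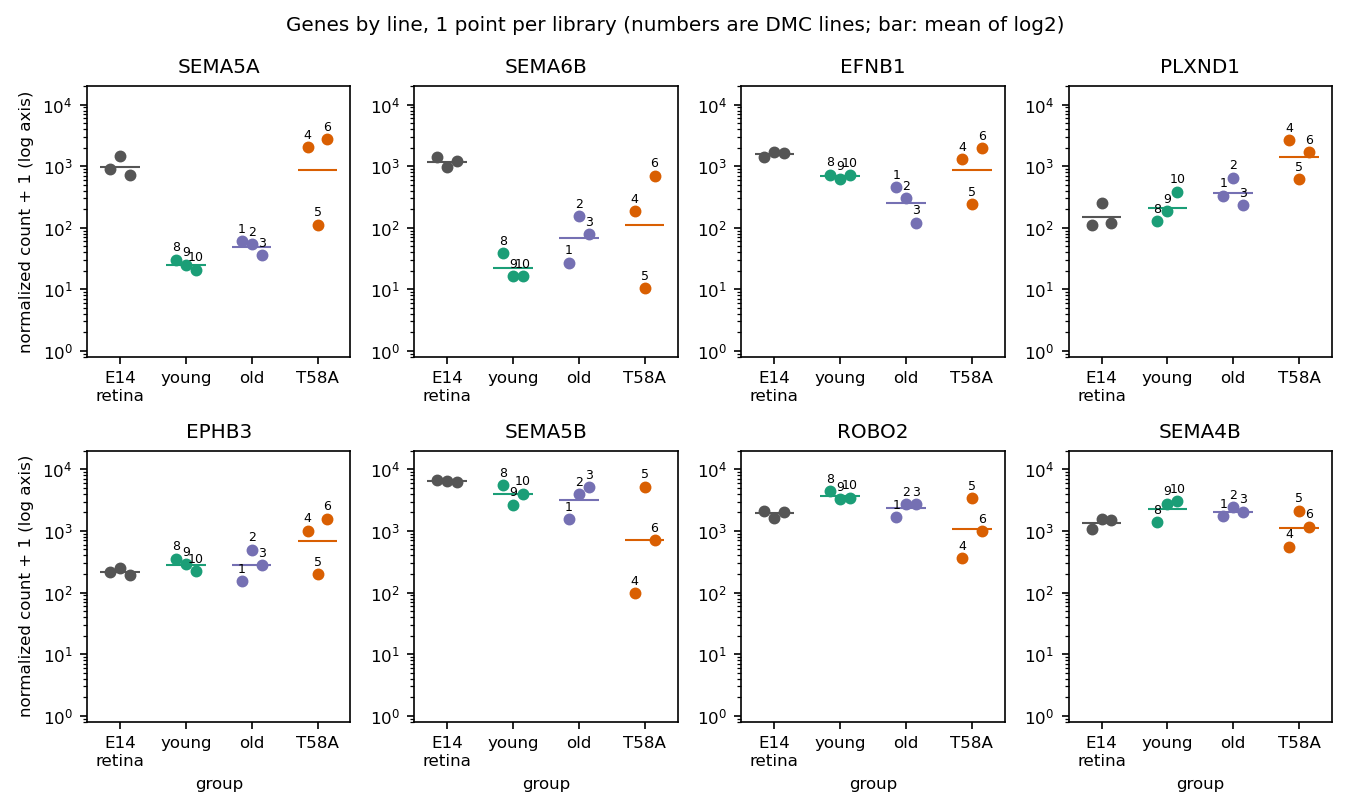
Normalized count plus 1 (vertical, log axis) of 8 genes in the 4 groups (horizontal), 1 point per library with the number of the DMC line beside it and a bar at the mean of the log2 values. DMC4 and DMC6 are above DMC5 for SEMA5A, SEMA6B, EFNB1, PLXND1 and EPHB3 and below it for SEMA5B, ROBO2 and SEMA4B.

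The 9 lines also differed among themselves. The SD of log2(normalized count + 1) over the 9 lines had a median of 1.30 for the 53 genes and 0.63 for all genes tested, while over the 3 retinas the medians were 0.19 and 0.17, and the sets were not matched on level. SEMA3A, SEMA5A, EPHA4 and SEMA3D spread over 122 to 156 times between the lowest and the highest line. The lowest and highest lines were DMC1 and DMC5 in SEMA3A, DMC10 and DMC6 in SEMA5A, DMC1 and DMC8 in EPHA4 and DMC10 and DMC6 in SEMA3D. The spread of SEMA3D rests on 1 read in DMC10 and that of SEMA3A on 6 reads in DMC1, so both are loose. At the other end SEMA6D, SEMA4D and SEMA4C spread over 2.03 to 2.13 times. Both sets were picked by this spread after the values were seen.

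Other genes of the pathway were taken from lists of known members, and are read against the 23.0%, 23.5% and 24.8% of all genes lower and 20.5%, 20.3% and 19.6% higher in the young, old and T58A comparison. Of 22 other guidance cues and receptors tested, 13, 15 and 13 were called lower and none higher. Of 17 axon adhesion molecules, 10, 9 and 10 were lower and 4, 4 and 3 higher. NTM, CNTN3 and CNTN6, adhesion proteins of the immunoglobulin superfamily, were higher in all 3 comparisons, CNTN3 with 190.0, 164 and 161 in retina and 947 to 3937 in the lines. Of 40 cytoplasmic effectors, which pass the signal to the cytoskeleton, 11, 12 and 11 were lower and 3, 2 and 3 higher, with median log2 fold changes of -0.32, -0.42 and -0.53, a share of lower genes near that of all genes. MICAL2, an actin oxidase, was higher in all 3, and LIMK1, a kinase that inactivates cofilin, was higher in young and T58A cells. The collapsin response mediators differed from each other. DPYSL2 and DPYSL5 were lower in all 3 and DPYSL3 in old and T58A cells, whereas DPYSL4 was higher in young cells (log2 fold change 1.49) and not called in the others. Of 14 factors that set position in the retina, 9, 10 and 11 were lower. TBX5, a dorsal factor, and VAX1, a ventral one, fell in all 3 and had 0 reads in the 6 lines of the old and T58A groups. EMX2 was higher in old and T58A cells, with 367, 324 and 1058 and 762, 19.1 and 332 against 0 in all 3 retinas.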

How the data were processed

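RNA was poly(A)-selected and sequenced in 12 libraries. The authors aligned the reads with nf-core/rnaseq 3.4, counted fragments with featureCounts 2.0.0 on galGal6 at a mapping quality of at least 20, divided the counts by TMM factors (edgeR) and deposited 1 table; its values were treated as signal. Each deposited signal value above 0 is a whole number divided by 1 of 12 factors that change from gene to gene, and 8.36% carry the factor of their own library. Reads were recovered (100% whole within a relative 1e-06) and divided by library total times own TMM factor, times the mean of that product, to give normalized counts. Genes with at least 10 reads in at least 3 libraries were kept. log2(normalized count + 1) was fitted with limma 3.58.1 (R 4.3.3, lmFit, contrasts.fit, eBayes with trend) over 12 libraries in 4 groups, with Benjamini-Hochberg adjustment over 15284 genes. The exact count test of the methods was not run; voom weights on the recovered reads were an alternative. The scale of log2(value + 1) understates changes of low genes. Tested on simulated counts for young cells against E14 retina (15284 genes), the fit called 95.5% of genes given a log2 change of 2, 100% of genes given 3, and at most 15 others. The simulation gave every gene the same dispersion and changed only genes of higher mean count. Its rates were not measured at the spread of the axon guidance genes between lines (median SD 1.30 over the 9 lines), so they need not hold for them. An exact permutation test of 3 against 3 libraries cannot go below p = 0.1, so none was used. Members, lists and alternatives were chosen with earlier results of these data known. Most genes were named by 1 rule. It took in each class the DE gene with the largest rise and fall in young cells. Then it took up to 4 called in all 3 comparisons with retina or in none. Others are given more briefly, except that SEMA3A, SEMA5B, PLXND1 and SLIT3 are given library by library outside this rule. Genes named for T58A against old cells were chosen after their values were seen. Folds are ratios of group means, with groups of at most 3 reads per library set to 3. Besides the pathway lists, lists of oligodendrocyte, pigment epithelium and blood and vessel markers were summed: 425 to 536, 205 to 247 and 2739 to 4676 normalized counts in retina, 61.0 to 601, 23413 to 73181 and 688 to 1564 in the lines. ISL1 and TFAP2B stand in 2 marker lists each. Rows that the table leaves unnamed were not used, and figures were drawn with matplotlib 3.10.9.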

Additional observations from a re-analysis of the deposited data

Results flagged for a closer look

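EPHA4 was the only axon guidance gene for which every line of 1 group was above and every line of another below all 3 E14 retinas. How many of all genes tested show such a pattern was not counted, so its rarity among the axon guidance genes cannot be judged. Young lines were above and old lines below them, a difference of 3.65 on the log2 scale between young and old DMC cells, which did not pass the test in limma (log2 fold change 3.65 ± 1.05 (SE), adjusted p = 0.249). It was higher in 3 of 3 young than old lines.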

How the results depend on the processing

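Of 91 DE calls against E14 retina, 77 were made in every alternative, 14 were lost in at least 1 (9 of them in T58A cells) and none changed direction. The total of DE genes stayed within 1.5 times in those comparisons, and so did the genes called lower. In young cells 6 genes were called higher in the fit of 6 libraries in place of 3, in old cells 5, and in T58A cells 3 with the deposited values in place of 5. Of all genes tested, these fits called 3572, 3341 and 2076 higher in place of 3137, 3106 and 2999. Leaving out 1 library gave 3 to 8 called higher in T58A cells, where 2658 to 3159 of all genes were. In T58A against old cells the deposited values, a pseudocount of 10 and voom weights gave 1 in place of 0, and leaving out 1 library gave 0 to 17. Of genes not called, 8 of 24, 6 of 23 and 10 of 21 turned direction in at least 1 alternative in young, old and T58A cells against retina, 18 of 53 in young against old and 19 of 53 in T58A against old cells. Among them, in the last, were EFNA2 without DMC4, SEMA6B and UNC5D without DMC6 and UNC5D without DMC1, and leaving out 1 library gave -0.40 to 1.91 for EFNA2, -0.64 to 2.39 for SEMA6B and -0.32 to 1.80 for UNC5D. In T58A cells against retina it turned for EFNB1 without DMC5 and for SEMA5A without DMC5 or E14 retina 2, with ranges of -1.52 to 0.00066 for EFNB1 and -1.05 to 1.25 for SEMA5A. ROBO2 turned in old cells against retina without TMM factors (-0.068). Old lines and retinas share the numbers 1 to 3, but correlations of their deviations of -0.022, 0.030 and 0.015 for equal numbers do not pair them, and E14 retina 1 correlated best with DMC3. The fit of 6 libraries with a replicate block gave 6 genes higher and 30 lower, against 5 and 32 in the same libraries without the block. Of all genes tested, 3295 were higher and 3869 lower with the block, against 3341 and 3940 without it. A level of 3 reads, 2.64 to 3.58 normalized counts, limits statements on NTN1, NTN3, NTN4, SEMA3E and EPHA1. EPHB6, SEMA3D, NTNG1, EPHA2 and UNC5D were also at or below 3 reads in at least 1 line, so their folds and their spreads between lines are loose.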
